A study of Mus musculus with 4 samples.

Results

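The genes described here are *Atf4*, which encodes the transcription factor at the center of the integrated stress response, and 9 genes of the same response, namely *Ddit4*, *Ddit3*, *Asns*, *Trib3*, *Chac1*, *Sesn2*, *Psat1*, *Phgdh* and *Atf5*. They were taken by symbol and make up 10 of the 13577 genes listed in a bulk RNA-Seq table of nasal process (NP) tissue from mouse embryos at E11.5. The group was drawn up with values of these same libraries in view, because *Atf4* and *Ddit4* differed between control and ca-*Acvr1* mutant NPs at an unadjusted p of 0.00274 and 0.00753 in limma. For that reason the differences of the 10 genes between the groups are given below as descriptions, and no test of them is offered as evidence.

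The series holds 2 libraries titled control and 2 titled ca-*Acvr1* mutant, all from NPs at E11.5. All carry *P0-Cre*, a Cre transgene that is active in neural crest cells, and the mutants also carry the floxed allele of a constitutively active type I BMP receptor, ca-*Acvr1(A11)*, on a mixed background with both sexes combined. The Cre acts only in the neural crest lineage, whereas the NPs also hold epithelium, neural tissue, vessels and blood cells that it does not target. The genotype entries of the libraries contradict the titles, since those titled control are entered as ca-*Acvr1(A11)*;*P0-Cre* and those titled mutant as *P0-Cre* alone. The titles were used here, and if the genotype entries were the correct ones, each direction below would turn round. Whether each library came from 1 embryo or from several is not given in the sources used here, so the errors measure only the spread between these libraries. *Acvr1* itself had 21.5 and 23.1 CPM (the reads of a gene after scaling for the library total) in the control libraries, and 24.1 and 12.6 CPM in the mutants. Its reads check nothing here, because the libraries read the 3′ ends of transcripts and the sources do not say whether the transgene keeps the 3′ end of *Acvr1*.

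The library totals were between 1956831 and 2408827 reads, and 1 read stood for 0.415 to 0.511 CPM. Replicates correlated across all genes with r = 0.976 in control and 0.978 in mutant libraries (genes are not independent replicates). In the test across the 12462 genes with a mean above 1 CPM, 112 genes (0.899%) passed an adjusted p of 0.05, of which 38 (0.305%) were higher and 74 (0.594%) lower in the mutant libraries.

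The integrated stress response starts when a kinase that senses amino acid shortage, unfolded protein, heme loss or double-stranded RNA phosphorylates the translation factor eIF2. Most translation then slows, while the mRNA of *Atf4*, which has short upstream reading frames, is translated more. ATF4 protein pairs with other bZIP factors, activates genes for amino acid synthesis, uptake and tRNA charging, and induces its own partners, brakes and death-related targets such as *Ddit3* (CHOP), *Trib3* and *Chac1*. Because its control is largely translational, the level of *Atf4* mRNA is not a measure of ATF4 protein, and no protein was measured in these libraries.

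ATF4 heterodimers bind the C/EBP-ATF response element, written TGATGNAA, where N is any base. The RefSeq promoter table of GRCm38.p6 (250 bases before to 50 after each start site) holds 12 promoters of the 10 genes, and this element was found on either strand in 3 of them, those of *Asns*, *Trib3* and *Chac1*. It was found in 1304 (3.97%) of all 32851 promoters in the table. The palindromic cAMP response element TGACGTCA was in 588 (1.79%) of all promoters and in 0 of the 12. The 3 promoters with the element are printed because their genes are the classical readouts of ATF4, and those of *Atf4* and *Ddit4* because these genes led to the choice of the group. Each runs 5′ to 3′ on the strand of its gene, and capitals mark the element, which lies on the forward strand from −23 to −16 at *Asns* and reads as its reverse complement from 14 to 21 at *Trib3* and from −193 to −186 at *Chac1*, counted from the start site. The promoters lie at chr6:7693160-7693459 (*Asns*, minus strand), chr2:152344011-152344310 (*Trib3*, minus strand), chr2:119350992-119351291 (*Chac1*, plus strand), chr15:80254934-80255233 (*Atf4*, plus strand) and chr10:59951721-59952020 (*Ddit4*, minus strand).
Asns: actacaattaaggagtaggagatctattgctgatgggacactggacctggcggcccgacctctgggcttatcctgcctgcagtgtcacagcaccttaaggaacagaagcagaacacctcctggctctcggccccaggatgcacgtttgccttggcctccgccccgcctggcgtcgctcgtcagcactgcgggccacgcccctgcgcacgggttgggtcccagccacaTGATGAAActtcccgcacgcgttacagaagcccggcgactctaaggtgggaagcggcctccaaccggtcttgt
Trib3: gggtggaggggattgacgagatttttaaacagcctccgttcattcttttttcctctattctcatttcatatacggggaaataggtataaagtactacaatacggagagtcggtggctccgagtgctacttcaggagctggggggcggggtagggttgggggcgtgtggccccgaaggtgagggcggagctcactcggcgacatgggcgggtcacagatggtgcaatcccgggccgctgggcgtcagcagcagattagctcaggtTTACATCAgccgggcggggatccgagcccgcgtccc
Chac1: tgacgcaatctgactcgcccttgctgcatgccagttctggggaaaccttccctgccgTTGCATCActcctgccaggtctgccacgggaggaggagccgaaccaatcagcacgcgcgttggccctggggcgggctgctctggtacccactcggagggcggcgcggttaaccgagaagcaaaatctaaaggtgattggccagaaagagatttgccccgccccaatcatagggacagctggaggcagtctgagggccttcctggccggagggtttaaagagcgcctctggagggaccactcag
Atf4: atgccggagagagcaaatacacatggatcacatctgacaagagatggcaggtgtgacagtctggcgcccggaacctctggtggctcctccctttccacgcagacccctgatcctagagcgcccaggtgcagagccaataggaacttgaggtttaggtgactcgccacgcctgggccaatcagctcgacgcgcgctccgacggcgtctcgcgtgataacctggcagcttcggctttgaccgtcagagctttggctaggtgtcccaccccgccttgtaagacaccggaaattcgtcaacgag
Ddit4: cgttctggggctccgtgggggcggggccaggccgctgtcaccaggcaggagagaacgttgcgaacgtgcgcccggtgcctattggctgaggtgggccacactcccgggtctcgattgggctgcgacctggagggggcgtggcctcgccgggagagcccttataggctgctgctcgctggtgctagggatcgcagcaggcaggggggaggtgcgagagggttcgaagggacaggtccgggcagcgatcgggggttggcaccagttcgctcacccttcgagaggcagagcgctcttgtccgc

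A match of letters is a description and not a binding site.

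The 10 genes covered a wide range of levels. The reads come from transcript ends and do not grow in number with transcript length, so CPM was compared between genes without length correction. The order is approximate, since the assignment of reads is uncertain for *Phgdh* and *Ddit3*, as given below. By mean CPM over the 4 libraries, *Atf4* (374) and *Psat1* (363) were the most abundant and stood at ranks 411 and 432 of the 13577 genes. *Ddit4* (72.9), *Asns* (41.7), *Atf5* (23.5) and *Phgdh* (15.0) followed. *Ddit3* (3.57), *Trib3* (2.19), *Sesn2* (1.75) and *Chac1* (0.772) were near the detection limit, which is 3 reads, or between 1.25 and 1.53 CPM depending on the library. In this order *Atf4* overlapped *Psat1*, *Atf5* overlapped *Phgdh*, *Trib3* overlapped *Sesn2*, and *Sesn2* overlapped *Chac1* in their values over the libraries, while the other neighbors did not overlap, although the counting intervals of *Ddit3* and *Trib3* did.

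**Figure D1:**
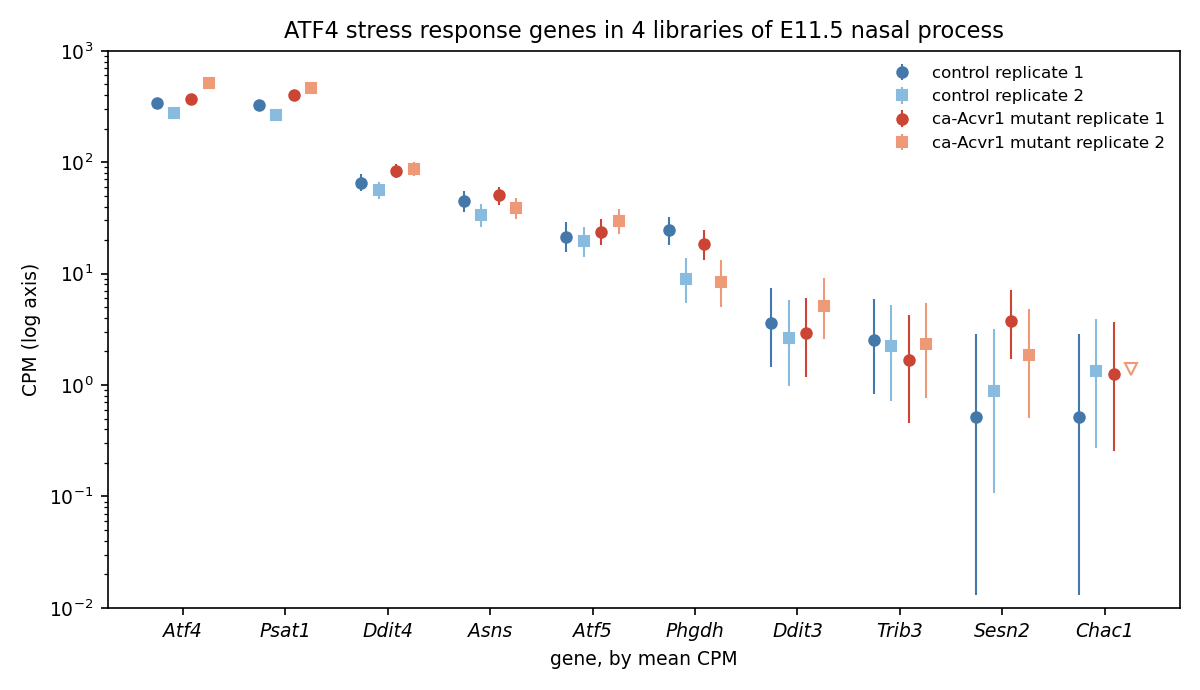
CPM (log axis) of the 10 genes in each of the 4 NP libraries, ordered by mean. Points are single libraries, and bars are exact 95% Poisson intervals of the reads (counting error only). The open triangle, drawn at 3 reads (1.40 CPM), stands for the 0 reads of *Chac1* in mutant replicate 2. *Atf4*, *Psat1*, *Ddit4*, *Atf5* and *Sesn2* lay higher in both mutant libraries than in both control libraries, *Phgdh* differed more between replicates than between groups, and the bars of the last 4 genes are wide.

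Among the regulators, *Atf4* was at 337 and 279 CPM in control replicates 1 and 2 and at 370 and 512 CPM in mutant replicates 1 and 2. Both mutant libraries were above both control libraries, but mutant replicate 1 exceeded control replicate 1 only slightly, and mutant replicate 2 stood well above the rest. The counting intervals of control replicate 1 (312 to 364 CPM) and mutant replicate 1 (346 to 395 CPM) overlapped. The means were 308 ± 41.4 CPM in control and 441 ± 100.4 CPM in mutant libraries (SD, n = 2 each), a ratio of 1.43. The log2 fold change, on the log2(CPM + 1) scale used throughout, was 0.50 with a standard error of 0.15 and a 95% interval from 0.19 to 0.82. Without mutant replicate 2 it was 0.27, and without mutant replicate 1 it was 0.74. In bulk tissue, fewer cells of a type and less RNA per cell cannot be told apart, and in the same libraries the summed markers of neural crest mesenchyme were lower in mutants (ratio 0.464) and those of epithelium (1.53), neural tissue (1.37) and macrophages (2.13) higher, as given in full further on. The gene lies at chr15:80255184-80257541 on the plus strand in GRCm38, and the last exon, where 3′ reads are expected to fall, spans chr15:80256634-80257541.

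*Atf5*, which encodes a related bZIP factor that is translated under the same control and is itself induced by ATF4, measured 21.5 and 19.5 CPM in the control and 23.7 and 29.5 CPM in the mutant libraries. The groups did not overlap, but the lowest mutant and the highest control value were close, and the counting intervals of all 4 libraries overlapped. Its log2 fold change was 0.35 (standard error 0.24, 95% interval −0.14 to 0.84), and it ranged from 0.20 without mutant replicate 2 to 0.51 without mutant replicate 1.

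*Ddit3* encodes CHOP, the bZIP partner of ATF4 that is linked to cell death in prolonged stress. It was counted in 7 and 6 reads in control and in 7 and 11 reads in mutant libraries, or 3.58 and 2.66 CPM against 2.91 and 5.15 CPM. The groups overlapped, and only mutant replicate 2 was above the control range. Its log2 fold change was 0.26 with an interval from −0.63 to 1.15, and it became −0.07 without mutant replicate 2. The 3′ end of *Ddit3* overlaps *Mars* on the opposite strand, with 68 identical bases, and the strand setting of the read counting is not given in the sources used here, so reads of *Ddit3* and *Mars* cannot be told apart there.

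*Trib3* encodes a pseudokinase that is induced by ATF4 and CHOP and restrains them. It had 5 and 5 reads in control and 4 and 5 reads in mutant libraries, or 2.56 and 2.22 CPM against 1.66 and 2.34 CPM. The groups overlapped, with a log2 fold change of −0.18 and an interval from −1.15 to 0.78.

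*Chac1* encodes an enzyme that degrades glutathione and is among the most responsive targets of ATF4. It had 1 and 3 reads in control and 3 and 0 reads in mutant libraries. With a mean of 0.772 CPM it was the 1 gene of the 10 below the filter of 1 CPM and was not fitted. The counting interval of the 0 reads in mutant replicate 2 reaches up to 1.73 CPM, so a difference in *Chac1* was not detectable at this depth. *Ddit3*, *Trib3* and *Chac1* were therefore all measured in the NPs by a few reads, and none separated the groups.

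Of the serine and asparagine enzymes, *Psat1* encodes phosphoserine aminotransferase, the middle step of serine synthesis from glycolytic 3-phosphoglycerate. Its level was 325 and 263 CPM in the control and 399 and 467 CPM in the mutant libraries. Both mutant libraries were above both control libraries, with no overlap of their counting intervals. The means were 294 ± 43.6 and 433 ± 47.8 CPM (SD, n = 2 each), a ratio of 1.47. The log2 fold change was 0.56 (standard error 0.14, interval 0.27 to 0.85) and stayed between 0.41 and 0.71 when each library was left out in turn.

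*Phgdh* encodes the first enzyme of the same pathway, 3-phosphoglycerate dehydrogenase. Its level was 24.5 and 8.88 CPM in the control and 18.3 and 8.42 CPM in the mutant libraries. Replicate 1 was above replicate 2 in both groups, by a ratio of 2.76 in control and 2.17 in mutant libraries, so that the replicates differed far more than the groups. The counting intervals of the control replicates, 18.1 to 32.5 and 5.42 to 13.7 CPM, did not overlap. The log2 fold change was −0.24 with an interval from −0.99 to 0.52, and it ranged from −0.92 to 0.45 when each library was left out. The last 500 bases of the *Phgdh* transcript match 7 processed pseudogenes at 95% identity or more over 277 to 367 bases, so its reads could have been assigned elsewhere and its values are uncertain.

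*Asns* encodes asparagine synthetase, the enzyme whose promoter served to define the amino acid response. Its level was 44.5 and 33.3 CPM in the control and 50.2 and 38.8 CPM in the mutant libraries. Replicate 1 was again the higher in both groups, and the groups overlapped. *Asns* had a log2 fold change of 0.19 (standard error 0.21, interval −0.23 to 0.62), and without control replicate 2 it was −0.01. *Psat1* was therefore the 1 amino acid enzyme of the 10 genes whose libraries were separated by group.

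The last pair restrains mTORC1, the kinase complex that couples growth to nutrients. *Ddit4* encodes REDD1, which releases the TSC complex to inhibit mTORC1 and is known to respond to ATF4, hypoxia, glucocorticoids and p53. Its level was 65.4 and 55.9 CPM in the control and 83.9 and 86.6 CPM in the mutant libraries. Both mutant libraries lay above both control libraries and close to each other. The means were 60.7 ± 6.70 and 85.2 ± 1.92 CPM (SD, n = 2 each), a ratio of 1.40. The log2 fold change was 0.49 (standard error 0.17, interval 0.14 to 0.83), between 0.38 and 0.60 with each library left out. The gene lies at chr10:59949669-59951834 on the minus strand.

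*Sesn2* encodes sestrin 2, a leucine sensor that holds back mTORC1 and is a target of both ATF4 and p53. It had 1 and 2 reads in control and 9 and 4 reads in mutant libraries, or 0.511 and 0.888 CPM against 3.74 and 1.87 CPM. The mutant libraries were the higher, but the counting intervals of control replicate 2 (0.108 to 3.21 CPM) and mutant replicate 2 (0.51 to 4.79 CPM) overlapped widely. *Sesn2* had a log2 fold change of 1.13 (interval 0.07 to 2.18) with a pseudocount of 1 and 1.82 with a pseudocount of 0.1, since at so few reads its size depends on the pseudocount.

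**Figure D2:**
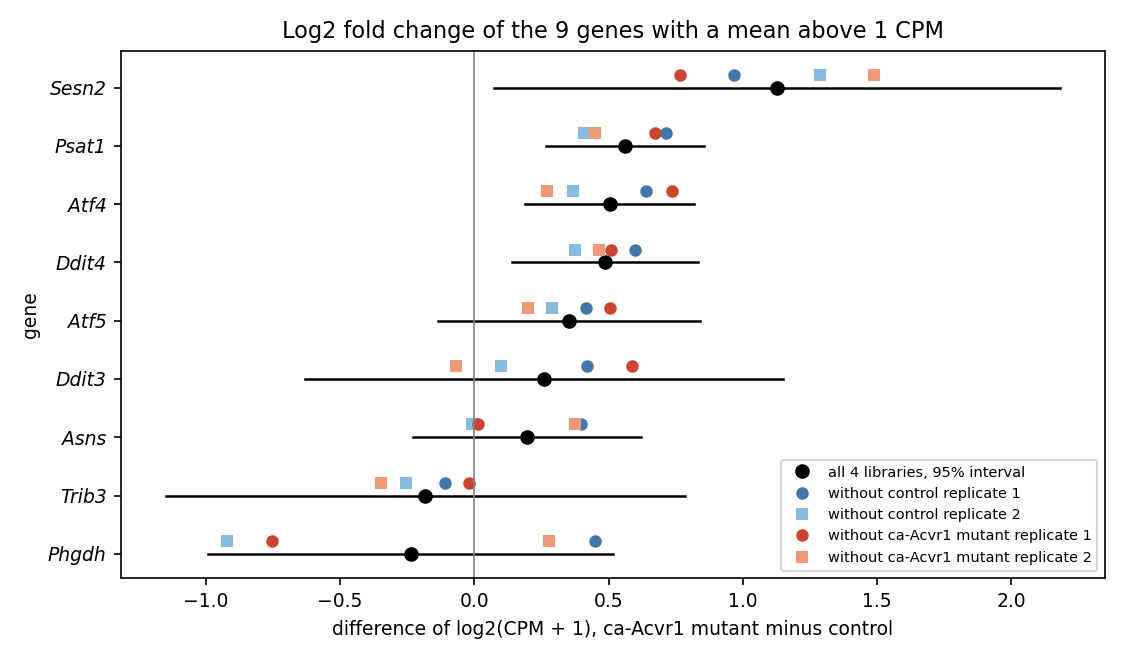
Log2 fold change, ca-*Acvr1* mutant minus control on the log2(CPM + 1) scale, of the 9 genes with a mean above 1 CPM; black points and bars are the limma estimate with its 95% interval from all 4 libraries, and colored points are the value without the library named in the key. *Psat1*, *Atf4*, *Ddit4*, *Atf5* and *Sesn2* had both mutant libraries above both control libraries, so they had to stay above 0 whichever library was left out. *Phgdh*, *Asns* and *Ddit3* changed sign.

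Over the 9 fitted genes, 7 log2 fold changes were positive and 2 negative, with a median of 0.35, whereas 54.2% of all genes tested were positive and their median was 0.03. The unadjusted p was below 0.05 for 4 of the 9, *Psat1*, *Atf4*, *Ddit4* and *Sesn2*, against 9.55% of all genes. *Sesn2* (0.0372) and *Atf5* (0.151) were the nearest to this threshold on either side among the 9. Of the 9 genes, 5 had both mutant libraries above both control libraries, against 21.9% of all genes, and 0 had both below, against 16.8%. As the genes were chosen from this contrast, nothing is read from these counts. None of the 9 passed an adjusted p of 0.05 over all genes tested in limma without a term for replicate number (0.899% of all genes did). The fit with that term is given at the end. edgeR passed 0 of the 6 genes it fitted (1.31% of all genes), with 3 higher below an unadjusted 0.05 (4.72%). DESeq2 passed 0 of the 7 for which it gave an adjusted p (0.365%), with 2 of 10 higher below an unadjusted 0.05 (0.958%). limma-voom passed 1 of 6 (1.24%), *Psat1*, with an adjusted p of 0.0488, and 3 were higher below an unadjusted 0.05 (4.95%).

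Other genes were taken from 13 lists, without the 10 genes above, to show what else was measured. Some lists hold genes of the response. Others hold genes of neighboring pathways, such as glucocorticoid response genes, immediate early and heat shock genes and p53 targets. Together the lists named 184 genes, of which 173 were listed and 171 tested. In limma 6 of the 171 were higher and 0 lower at an adjusted p under 0.05, and all 6 belonged to the list of p53 targets. Of the 162 tested genes outside that list, 0 passed in limma, edgeR, DESeq2 or limma-voom. Of these, 7 were higher and 0 lower at an unadjusted p under 0.05 in limma, where 5.42% of all genes were higher and 4.12% lower. At that threshold, in either direction, edgeR had 7, DESeq2 3 and limma-voom 6 of these genes. Among all 12462 genes tested in limma, the same tools had 1020, 360 and 1035. The median log2 fold change of the 162 genes in limma was 0.08, with 108 positive and 54 negative values. Over all genes tested 54.2% were positive, the share to set beside each count of positive values below.

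Upstream of *Atf4*, the next list held the sensor kinases and phosphatase subunits that act on eIF2, together with *Impact*, *Gcn1l1*, *Oma1* and *Dele1*. All but *Dele1* were listed in the data. None of the 10 tested passed the test at an adjusted or an unadjusted p under 0.05, by any of the 4 tools, and their median log2 fold change was 0.04. The smallest p belonged to *Ppp1ca*, a catalytic subunit of protein phosphatase, which measured 36.3 and 33.3 CPM in the control and 32.8 and 20.1 CPM in the mutant libraries (log2 fold change −0.42, limma adjusted p = 0.614). *Eif2ak1*, the heme-regulated kinase, followed with −0.22 (adjusted p = 0.773). The 10 tested subunits and helpers of eIF2 and eIF2B had a median of 0.01 with 5 positive and 5 negative values, and 0 passed at either threshold by any of these tools. *Eif2s2*, the beta subunit of eIF2, measured 1172 and 1056 CPM in the control and 1216 and 1392 CPM in the mutant libraries (log2 fold change 0.23, adjusted p = 0.680), and *Eif2s3x*, the gamma subunit, was at a log2 fold change of −0.24 (adjusted p = 0.764). mRNA levels say nothing of the phosphorylation of eIF2, which was not measured here.

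Among the 17 tested bZIP factors that can pair with ATF4 or share its sites, 11 log2 fold changes were positive and 6 negative, and none passed the adjusted threshold in any tool. *Junb*, an AP-1 subunit, was the only one below an unadjusted p of 0.05 in limma, with 11 and 9 reads in control and 26 and 20 reads in mutant libraries (log2 fold change 0.94, standard error 0.36, adjusted p = 0.336). For *Jun* the log2 fold change was −0.24 (adjusted p = 0.690). Both groups of *Junb* were separated, on few reads in each library, and 21.9% of all genes had both mutant libraries above both control libraries.

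The genes through which ATF4 supplies amino acids to the ribosome formed 3 lists. The 49 tested genes of these lists had a median log2 fold change of 0.15, with 38 positive and 11 negative values (54.2% of all genes were positive). None passed the adjusted threshold in limma, edgeR, DESeq2 or limma-voom. In limma 4 were below an unadjusted p of 0.05, all of them higher in mutant libraries (5.42% of all genes were). Among the enzymes of amino acid synthesis and one-carbon metabolism (16 tested, 13 positive), *Mthfd2*, the mitochondrial folate enzyme that uses the one-carbon unit released from serine, measured 131 and 117 CPM in the control and 163 and 177 CPM in the mutant libraries (log2 fold change 0.46, standard error 0.15, adjusted p = 0.208). *Got1*, the cytosolic aspartate aminotransferase, was at 71.0 and 69.3 CPM against 88.4 and 86.6 CPM (0.31, adjusted p = 0.560). Both enzymes had their 4 libraries separated by group, as *Psat1* had, but neither passed the test. They were named for the smallest p in their list, and 21.9% of all genes had both mutant libraries above both control libraries.

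Of the 12 amino acid transporters tested, 7 were positive. *Slc7a1*, a carrier of cationic amino acids, measured 44.5 and 32.4 CPM in the control and 60.6 and 50.1 CPM in the mutant libraries (log2 fold change 0.53, standard error 0.20, adjusted p = 0.340). *Slc1a5*, a glutamine carrier, was at 23.0 and 21.8 CPM against 26.6 and 37.4 CPM (0.48, adjusted p = 0.523). Of the 21 cytosolic aminoacyl-tRNA synthetases and related genes, 18 were positive and 3 negative, with a median of 0.16. *Iars*, which charges isoleucine tRNA, measured 201 and 191 CPM in the control and 248 and 273 CPM in the mutant libraries (0.41, standard error 0.14, adjusted p = 0.259). *Mars*, which charges methionine tRNA and overlaps *Ddit3*, had overlapping groups and a log2 fold change of 0.36, with an adjusted p of 0.632 in limma.

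Of the 28 further targets of ATF4 and CHOP, 26 were listed and 24 tested, with a median of 0.18, 18 positive and 6 negative values. None passed the adjusted threshold in any of the 4 tools, and 3 were higher at an unadjusted p under 0.05 in limma, one of them *Mthfd2*. The other two encode death effectors. *Tnfrsf10b*, the death receptor that binds TRAIL, measured 13.8 and 7.10 CPM in the control and 31.1 and 16.4 CPM in the mutant libraries (log2 fold change 1.11, standard error 0.32, adjusted p = 0.133). *Bbc3*, which encodes PUMA, was at 54.7 and 41.3 CPM against 68.9 and 83.8 CPM (0.67, standard error 0.19, adjusted p = 0.103). Both are also known targets of p53. *Fgf21* and *Adm2* are not listed.

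The neighboring arms of the stress response were tested for comparison. The 22 tested chaperones and ATF6-XBP1 genes of the endoplasmic reticulum had a median of 0.03, with 13 positive and 9 negative values, and the 9 mitochondrial stress genes a median of 0.10. In both lists 0 genes passed the adjusted or the unadjusted threshold in limma, edgeR, DESeq2 and limma-voom. In the first list, *Derl1*, part of the channel that returns misfolded protein to the cytosol, had a value of 0.32 (adjusted p = 0.556) and the disulfide isomerase *Pdia4* one of −0.30 (adjusted p = 0.644). In the second, the chaperonins *Hspe1* and *Hspd1* had 0.18 (adjusted p = 0.742) and 0.17 (adjusted p = 0.786). The 9 tested glucocorticoid response genes had a median of 0.02 and also none at either threshold, with *Cdkn1c* at −0.23 (adjusted p = 0.660) and *Zbtb16* at 0.34 (adjusted p = 0.858).

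Of the 20 tested regulators of mTORC1, 12 were positive and 8 negative, none passed the adjusted threshold in any tool, and 1 was higher and 1 lower at an unadjusted p under 0.05 in limma. They were paralogs of the restraining pair above. *Ddit4l*, the paralog of *Ddit4*, measured 18.4 and 21.8 CPM in the control and 30.3 and 32.3 CPM in the mutant libraries (log2 fold change 0.62, standard error 0.23, adjusted p = 0.322). *Sesn1*, the paralog of *Sesn2*, measured 13.3 and 20.4 CPM in the control and 10.4 and 8.89 CPM in the mutant libraries (−0.72, standard error 0.30, adjusted p = 0.424). The sestrin paralogs thus had values of opposite sign, *Sesn2* on few reads and *Sesn1* without passing the test.

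Some genes in the list of p53 targets did pass the test. This list was drawn up with earlier results of these data known and leaves out *Tnfrsf10b*, given above. *Ddit4* and *Sesn2* are known targets of p53, and a part of p53 in their values was not tested. The median log2 fold change of the 9 other genes tested in the list was 0.78. Of these 9, 6 rose in mutant libraries in limma at an adjusted p under 0.05 (0.305% of all genes tested did). The other 3 were *Bbc3* and *Gadd45a*, with positive values, and *Sesn1*, with a log2 fold change of −0.72 as given above, and none of them passed. edgeR and limma-voom also called 6, and DESeq2 called 3. *Cdkn1a*, the cell cycle inhibitor p21, measured 29.1 and 32.4 CPM in the control and 190 and 164 CPM in the mutant libraries (log2 fold change 2.48, standard error 0.17, adjusted p = 1.46e-10). *Ccng1*, cyclin G1, rose by 1.98 (adjusted p = 1.79e-08) and *Zmat3*, an RNA-binding protein, by 1.06 (adjusted p = 0.000923). *Mdm2*, the ubiquitin ligase of p53, rose by 0.79 (adjusted p = 0.0153), *Trp53inp1*, a p53 cofactor, by 0.78 (adjusted p = 0.0177) and *Btg2*, an antiproliferative gene, by 0.68 (adjusted p = 0.0411), and these 3 did not pass in DESeq2 (adjusted p = 0.185, 0.257 and 0.525). *Btg2* was also the only one of the 14 tested immediate early and heat shock genes to pass in limma, and with *Junb* 2 were higher at an unadjusted p under 0.05. The count over all the lists depended on single libraries and was 3 without mutant replicate 1 and 13 without control replicate 1.

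**Figure D3:**
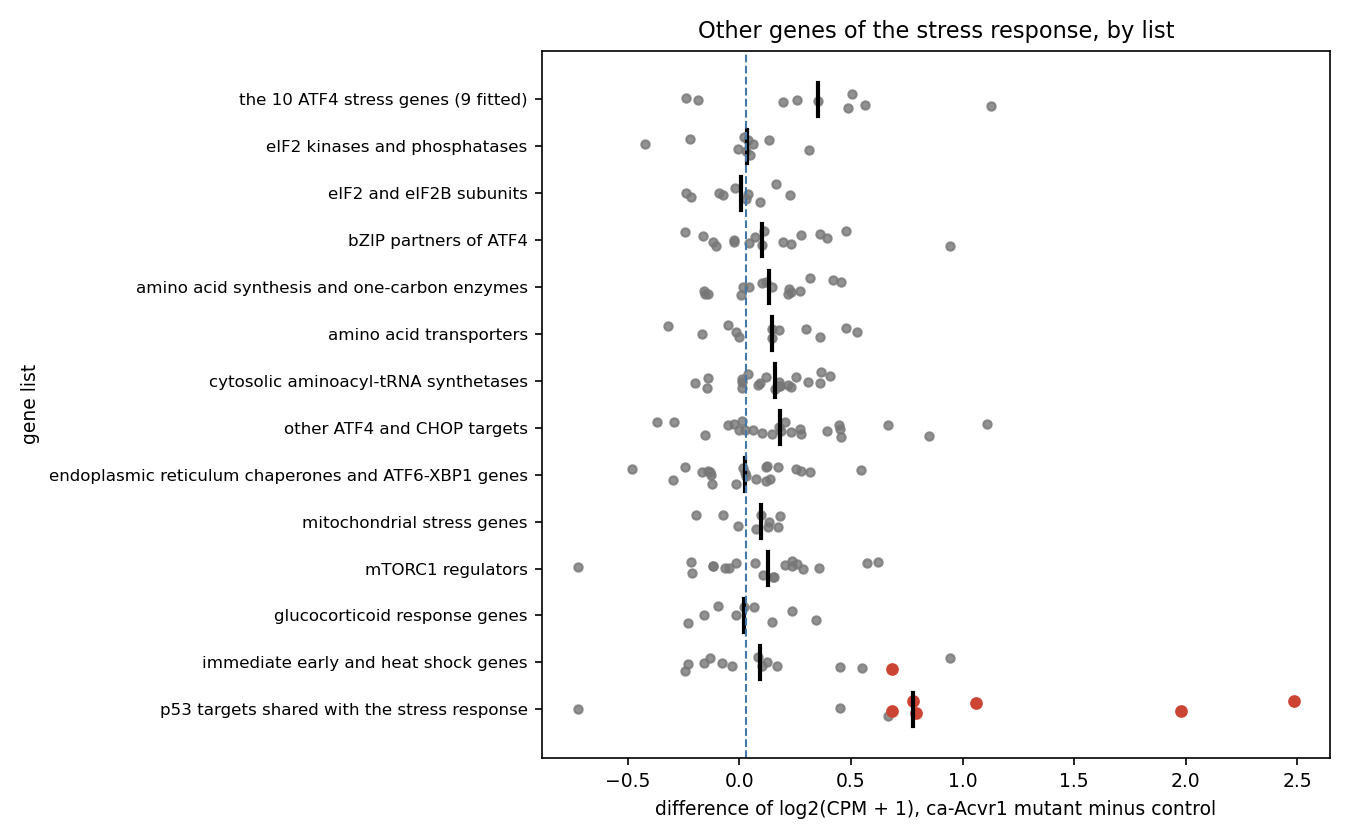
Log2 fold change, ca-*Acvr1* mutant minus control on the log2(CPM + 1) scale, of every tested gene in 13 lists and of the 9 fitted ATF4 stress genes. The lists cover the stress response and neighboring pathways. Each point is 1 gene, black bars are list medians, and the dashed line is the median of all genes tested (0.03). Red points passed an adjusted p of 0.05 in limma. Red points occur in the list of p53 targets and, for *Btg2*, in that of immediate early genes, and the medians of the lists above these lie between 0.01 and 0.18, apart from the 9 genes, which were chosen from this contrast.

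Cell type markers differed between the groups alongside these values. The summed level of 14 markers of cranial neural crest mesenchyme, all listed, was 1654 and 2043 CPM in the control and 858 and 859 CPM in the mutant libraries, a ratio of 0.464. Of these 14 markers 13 had a negative log2 fold change and 10 were called lower in limma, among them *Twist1*, *Prrx1*, *Alx1* and *Pdgfra*, the last a gene with values that are not whole reads. Markers that define the labelled tissue were thus present in both groups.

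Other markers were higher in mutant libraries. The 12 epithelial markers summed to 280 and 264 CPM in the control and 433 and 398 CPM in the mutant libraries (ratio 1.53), with 10 positive and 2, *Epcam* and *Cdh1*, called higher. The 14 neural markers summed to 2062 and 1794 CPM against 2608 and 2669 CPM (ratio 1.37), with 13 positive and *Six3* called higher. The 9 listed macrophage markers summed to 51.6 and 53.3 CPM against 87.6 and 136 CPM (ratio 2.13), all 9 positive and 2, *Cx3cr1* and *Mrc1*, called higher, while *Adgre1* and *Lyz2* are not listed. The macrophage and neural sums were highest in mutant replicate 2, as were *Atf4*, *Psat1*, *Ddit4*, *Atf5* and *Ddit3*. The epithelial sum was highest in mutant replicate 1, as were *Asns* and *Sesn2*. Nothing is read from an order over so few libraries.

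The ratios of the epithelial and neural sums were thus near those of *Atf4* (1.43), *Psat1* (1.47) and *Ddit4* (1.40), and their part in the result was not tested. The sums for endothelium (192 and 191 CPM against 198 and 181 CPM), for 8 listed erythroid markers (7051 and 8503 CPM against 6724 and 7229 CPM) and for 5 glial markers (90.5 and 136 CPM against 95.5 and 132 CPM) overlapped between the groups, and none of these markers was called. Most of the glial sum came from *Fabp7* (69.0 and 113 CPM against 83.4 and 122 CPM), whereas 2 markers of crest-derived glia were lower in both mutant libraries without passing the test, *Sox10* (19 and 18 reads against 5 and 7, log2 fold change −1.44, adjusted p = 0.0926) and *Foxd3* (6 and 18 reads against 4 and 1, −1.61, adjusted p = 0.178). The 5 listed muscle markers summed to 34.8 and 45.7 CPM against 31.6 and 33.2 CPM, with none called. Adult globins, *Myod1* and *Myog* are not listed. *Asns*, *Phgdh*, *Ddit3* and *Trib3* were not separated by group in these same libraries. *Ddit3* and *Trib3* rest on few reads, and *Phgdh* differed more between replicates than between groups. Nothing about cell types is read from these genes.

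**Figure D4:**
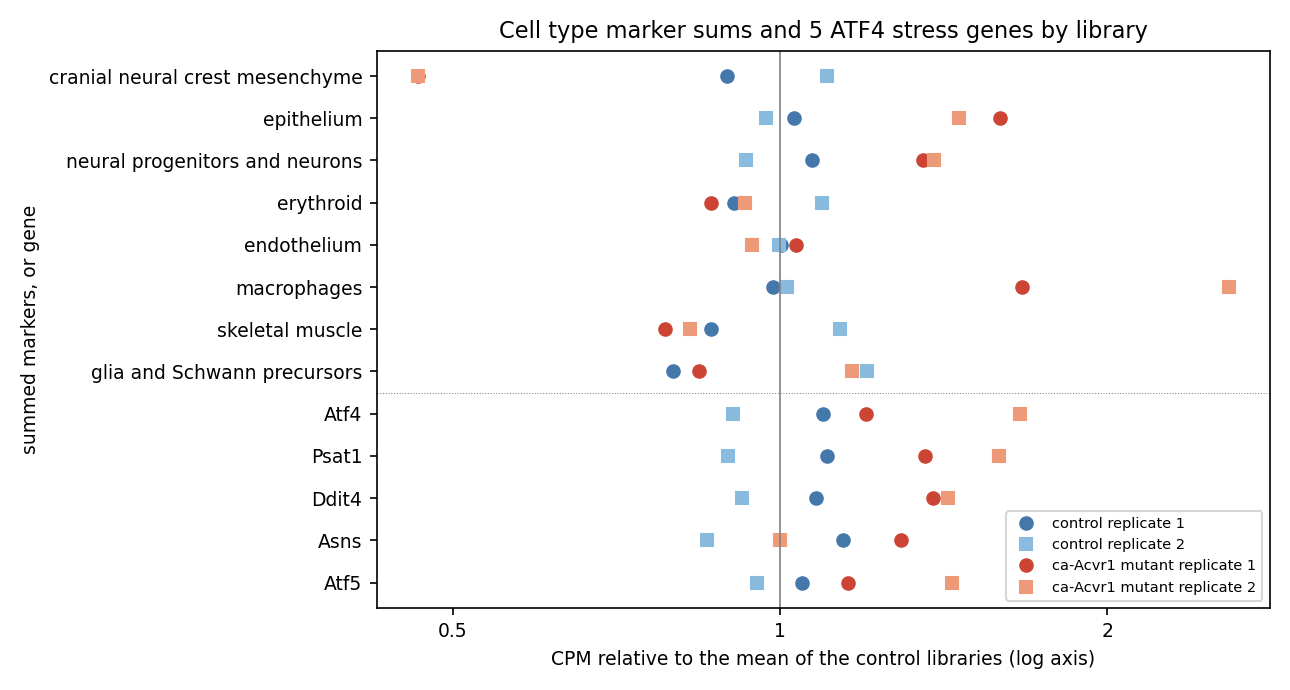
Summed CPM of markers of 8 cell types and CPM of the 5 most abundant ATF4 stress genes, each divided by the mean of the 2 control libraries (log axis); points are the 4 libraries. Mesenchymal markers lay near 0.464 in both mutant libraries, whose 2 points coincide. Epithelial, neural and macrophage markers and *Atf4*, *Psat1*, *Ddit4* and *Atf5* lay higher in both mutant libraries than in both control libraries.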

How the data were processed

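Bulk RNA-Seq of E11.5 NPs was analyzed in 2 control and 2 ca-*Acvr1* mutant libraries, grouped by title. RNA was isolated with TRIzol, and the libraries were made with a QuantSeq 3′ kit and sequenced on an Illumina platform. Per the submitters' processing notes, STAR, featureCounts 1.6.4, DESeq2 and the build mm10 were used. The authors deposited CPM values, scaled to library totals, for 13577 genes, beside 33470 empty lines. Within a tolerance of 0.02 reads, 99.921% of 54308 values were whole reads, from which read numbers and library totals were recovered. The other 43 values lie in 22 genes, one of them *Pdgfra* and none of them an ATF4 stress gene.

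limma 3.58.1 (R 4.3.3) was run on log2(CPM + 1) over 12462 genes with a mean above 1 CPM, with a trend of variance on mean level and adjustment by Benjamini-Hochberg (threshold 0.05). CPM values are not counts, so edgeR 4.0.16 (TMM or RLE), DESeq2 1.42.0 and limma-voom on the recovered reads were alternatives, beside a pseudocount of 0.1, no filter, at least 10 reads in every library, TMM or upper-quartile scaling, a replicate block, the omission of the 22 genes and leaving out each library. edgeR called 133 genes on the recovered reads. On simulated data of 13577 genes for this comparison, limma recovered 84 of 100 genes changed by 1 and 98 of 100 changed by 1.5 on the log2 scale, with 6 unchanged genes called. The changed genes were drawn from those with a mean above 20 CPM, and all genes were given the same dispersion. The simulation does not cover lower levels or smaller changes, such as those of the ATF4 stress genes. With 2 libraries against 2, an exact permutation test of a single gene cannot go below p = 0.333 and was not used.

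Intervals for single libraries are exact Poisson intervals of the reads and cover counting error only. The 10 genes, the lists and the tests were chosen with earlier results of these data known. Genes named from a list are those called in limma or otherwise the 2 with the smallest p, and the markers named are among those called, apart from *Fabp7*, *Sox10*, *Foxd3* and *Gadd45a*, which were chosen after their values had been seen. Coordinates are from GENCODE M21 (GRCm38) and promoters from RefSeq (GRCm38.p6). Similar transcripts were searched with blastn 2.17.0. The fit that is reported used every library, and no proteins were compared.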

Additional observations from a re-analysis of the deposited data

How the results depend on the processing

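Across the other settings of scaling, filter, pseudocount, tool and block, all 87 log2 fold changes of the ATF4 stress genes kept their sign and 85 moved by less than the SD within groups. The other 2 were those of *Sesn2*, with a pseudocount of 0.1 (1.82) and in DESeq2 (1.97). A change of filter, the replicate block and the omission of other genes cannot alter the limma coefficient of a gene. The values under these settings equal the main ones and show nothing about stability. With 1 library left out, 32 of 36 values kept their sign, and the exceptions were in *Phgdh*, *Asns* and *Ddit3*. Genes with both mutant libraries above both control libraries had to keep their sign. The median over the genes was 0.35 and lay between 0.28 and 0.51 with a library left out. All genes called numbered 112, against 39 in DESeq2, 229 with a replicate block and 94 to 462 with each library left out, the highest without control replicate 1. Over the 13 lists 6 genes were called, all of them in the list of p53 targets, against 3 in DESeq2. In the fits with a library left out, a lone library is assumed to vary like the other group.

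The replicate numbers pair the libraries by number only. The differences between replicates of the 2 groups correlated with r = 0.148 over 6568 genes above 20 CPM. All 112 genes were among the 229 of 12462 called with the block. Under it 2 of the 9 fitted ATF4 stress genes, *Psat1* (adjusted p = 0.0104) and *Atf4* (0.0350), passed in limma. The block leaves 1 residual degree of freedom per gene, and the ATF4 stress genes were chosen from this contrast, so nothing is read from these passes. Depth limits *Ddit3*, *Trib3*, *Sesn2* and *Chac1*, each of which had 11 reads or fewer in every library.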
